A study of Rattus norvegicus with 12 samples.

Results

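Actl7a, Actrt2 and Actl11 are 3 genes of the actin-like and actin-related family that the study's marker list places among its spermatid markers. Each was read as 1 transcript of the 31715 in every deposited table: ENSRNOT00000022395 for Actl7a, ENSRNOT00000016781 for Actrt2 and ENSRNOT00000047309 for Actl11. The 3 genes stand beside 382 other spermatid markers and 31512 features in all, where a feature is a marker or a single unnamed transcript. RNA was sequenced from the testis of SD rats, given as 8 weeks old, in 12 libraries, 3 in each of 4 groups. The study's methods state this age and 1 week of feeding before the experiments, but not the age at sampling. The groups were control, RS+IS_3D, RS+IS_14D and RS+IS_21D, where RS+IS is daily restraint stress followed by swimming in ice water, given for 3, 14 or 21 days. If all rats began at the same age, age at sampling rose with the duration of stress and cannot be told apart from it. Control rats were not restrained and did not swim, but went without food and water during the same hours. The labels do not say at which of these times the 3 control testes were taken, and name no animal, so p-values measure only the spread between these samples. All 382 other spermatid markers, all 181 spermatocyte (SPC) markers and all 12 spermatogonia (SPG) markers were above 0 in every library. The series holds testis only, so that testis specificity of the 3 genes could not be checked.

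Actin-like and actin-related proteins share the fold of actin, and several are made almost only in male germ cells after meiosis. Actl7a is an actin-like protein of the region between the nucleus and the acrosome, the cap that carries the enzymes of fertilization, and its loss is known to detach the acrosome and to impair fertilization. Actrt2 is an actin-related protein of the perinuclear theca, the cytoskeletal shell of the sperm nucleus, and Actl11 is a less studied actin-like protein of the testis.

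The regions just upstream of the 3 genes are shown because these genes varied together across libraries, as described further on. Other spermatid markers did so too, so this is not particular to the 3 genes. The median Pearson r of spermatid markers with Actl11 was 0.80, while Actrt2, at 0.78, ranked 204 of 577 markers. Each line gives the 250 bases before the RefSeq start, on the gene's own strand, from assembly GRCr8. The deposited tables were made on Rnor_6.0, so these coordinates do not belong to the files. Actl7a lies at chr5:76243922-76244171 on the + strand, Actrt2 at chr5:170519871-170520120 on the - strand and Actl11 at chr8:117497509-117497758 on the + strand. Capitals mark matches, on either strand, to TGATGTCA (a variant of the cAMP response element, picked after the sequences were seen) or to CCAAT, whose reverse complement is ATTGG.
Actl7a: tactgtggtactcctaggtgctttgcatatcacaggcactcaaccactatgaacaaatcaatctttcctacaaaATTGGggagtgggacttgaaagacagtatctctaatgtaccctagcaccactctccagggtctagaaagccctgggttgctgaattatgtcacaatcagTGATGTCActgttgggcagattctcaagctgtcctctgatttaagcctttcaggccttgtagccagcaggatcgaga
Actrt2: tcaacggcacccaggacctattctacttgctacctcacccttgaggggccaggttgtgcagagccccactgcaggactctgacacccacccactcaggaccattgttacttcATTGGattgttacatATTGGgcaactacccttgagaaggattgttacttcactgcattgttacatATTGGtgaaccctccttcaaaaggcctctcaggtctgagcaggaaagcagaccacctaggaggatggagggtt
Actl11: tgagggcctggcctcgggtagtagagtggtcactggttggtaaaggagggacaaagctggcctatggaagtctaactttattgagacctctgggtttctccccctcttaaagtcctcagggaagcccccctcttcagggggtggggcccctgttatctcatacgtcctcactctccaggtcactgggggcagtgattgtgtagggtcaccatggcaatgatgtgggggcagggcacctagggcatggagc
The Actl7a region held TGATGTCA 77 bases before the start and ATTGG 176 bases before it. The Actrt2 region held ATTGG at 138, 123 and 73 bases before the start. The Actl11 region held neither, and none of the 3 held a TATA box (TATAAA), a GC box (GGGCGG), the short motif TGACG or the full element TGACGTCA. Among 33469 rat promoter regions of the same length, 3.8% held TGATGTCA, 34% CCAAT, 12.9% TATAAA, 30.5% GGGCGG, 18.2% TGACG and 1.59% TGACGTCA. A match describes letters in this window and says nothing of binding.

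All 3 genes were highly expressed in every library. Levels are given as TPM, the abundance of a transcript relative to all transcripts of the library, which is scaled to transcript length and can be compared between genes. In the control libraries the TPM of Actl7a was 244, 286 and 285 (271.95 ± 24.0, SD, n = 3). The TPM of Actrt2 was 339, 374 and 425 (379 ± 43.4, SD, n = 3). The TPM of Actl11 was 116, 142 and 134 (131 ± 13.0, SD, n = 3). Actrt2 was thus the most abundant per length and Actl11 the least, in each control library. By mean control TPM they ranked 51 (Actrt2), 79 (Actl7a) and 188 (Actl11) among the 385 spermatid markers, whose median was 125 TPM. Estimated counts ran from 7521 to 9876 for Actl7a, from 9761 to 12863 for Actrt2 and from 9151 to 13025 for Actl11, whose transcript is the longest at 3690 bases against 1583 and 1479. Total counts ranged from 23908048 to 29404590 per library.

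Control replicate 1 was the lowest of the 3 control libraries for each gene. In the same library the summed CPM (a count relative to the library size, with TMM factors) of the other spermatid markers was also the lowest of the 3 control libraries, 86095.5 against 104866 and 98867. Its summed SPG markers were the highest of all libraries, 1069 CPM against 777 to 910 in the other 11.

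After 3 days of RS+IS the TPM of Actl7a was 252, 269 and 270 (263 ± 9.86, SD, n = 3). The TPM of Actrt2 was 352, 352 and 359 (354 ± 3.80, SD, n = 3), and that of Actl11 was 115, 128 and 127 (124 ± 7.29, SD, n = 3). For each gene all 3 libraries lay below the control mean. How many of all features did so was not counted. Each gene overlapped the control libraries, from which 9.73% of features stood apart. The fitted log2 fold changes from control were -0.080 for Actl7a (SE 0.0893, adjusted p = 0.986), -0.14 for Actrt2 (SE 0.0979, adjusted p = 0.985) and -0.12 for Actl11 (SE 0.102, adjusted p = 0.985), by edgeR's quasi-likelihood test with Benjamini-Hochberg adjustment over all features. None of the 3 genes had an unadjusted p under 0.05, where 4.04% of the 21076 features tested did. No feature had an adjusted p under 0.05 in edgeR (0%), against 851 features by the unadjusted p and 39 by DESeq2 (0.142%). Without control replicate 1 the log2 fold changes were -0.17 for Actl7a, -0.23 for Actrt2 and -0.21 for Actl11, with an unadjusted p of 0.0109, 0.00674 and 0.0154 (adjusted p = 0.599, 0.551 and 0.638 in edgeR). In that fit 1474 of 21452 features had an unadjusted p under 0.05. Nearest to 0 with 1 library left out were -0.027 for Actl7a and -0.039 for Actl11, both without control replicate 2, and -0.040 for Actrt2, without control replicate 3.

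After 14 days the TPM of Actl7a was 285, 272 and 287 (281 ± 8.21, SD, n = 3). The TPM of Actrt2 was 376, 371 and 408 (385 ± 20.4, SD, n = 3), and that of Actl11 was 144, 128 and 148 (139.9 ± 10.2, SD, n = 3). Each gene overlapped the control libraries, from which 19.5% of features stood apart, and log2 fold changes from control were 0.039 for Actl7a (SE 0.0910, adjusted p = 0.873), 0.017 for Actrt2 (SE 0.107, adjusted p = 0.958) and 0.079 for Actl11 (SE 0.108, adjusted p = 0.774) in edgeR. None of the 3 had an unadjusted p under 0.05, where 12.1% of features did. By the adjusted p edgeR called no feature (0%), against 2538 by the unadjusted p and 342 by DESeq2 (1.25%). Without control replicate 1 these log2 fold changes took the opposite sign, at -0.048, -0.076 and -0.015. That of Actrt2 was also negative, -0.041, without 14-day replicate 3.

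After 21 days the TPM of Actl7a was 285, 292 and 308 (295 ± 11.6, SD, n = 3). The TPM of Actrt2 was 364, 397 and 379 (380.3 ± 16.5, SD, n = 3), and that of Actl11 was 140.1, 145 and 156 (147 ± 7.97, SD, n = 3). By TPM all 3 libraries lay above the control mean for Actl7a and Actl11 and 2 of 3 for Actrt2 (1 of 3 by log2 CPM). The share of all features with 3 of 3 above it was not counted. Each gene overlapped the control libraries, from which 21.9% of features stood apart. The log2 fold change from control was 0.15 for Actl7a (95% interval -0.093 to 0.39, adjusted p = 0.524), 0.035 for Actrt2 (-0.25 to 0.32, adjusted p = 0.908) and 0.19 for Actl11 (-0.076 to 0.45, adjusted p = 0.472) in edgeR. None of the 3 had an unadjusted p under 0.05, where 14.2% of features did, and 4 features passed the adjusted threshold (0.019%). Without control replicate 1 the value was 0.051 for Actl7a, 0.083 for Actl11 and -0.067 for Actrt2, and that of Actrt2 was -0.041 without 21-day replicate 2.

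With the 6 libraries of 14 and 21 days set against the 3 control libraries, the log2 fold change was 0.094 for Actl7a (SE 0.0773, adjusted p = 0.524), 0.025 for Actrt2 (SE 0.0895, adjusted p = 0.900) and 0.13 for Actl11 (SE 0.0894, adjusted p = 0.432) in edgeR. None of the 3 was among the 375 features past the adjusted threshold (1.73% of 21663) or the 20.4% past the unadjusted one. All 3 overlapped the control libraries, from which 11.3% of features stood apart. Without control replicate 1 the value was 0.0083 for Actl7a, 0.040 for Actl11 and -0.066 for Actrt2, and that of Actrt2 was -0.0026 without 21-day replicate 2. Without control replicate 2 it was 0.16 for Actl7a and 0.22 for Actl11, and that of Actl11 then had an unadjusted p of 0.0464 (adjusted p = 0.223 in edgeR). In that fit 4792 of 22090 features had an unadjusted p under 0.05.

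**Figure D1:**
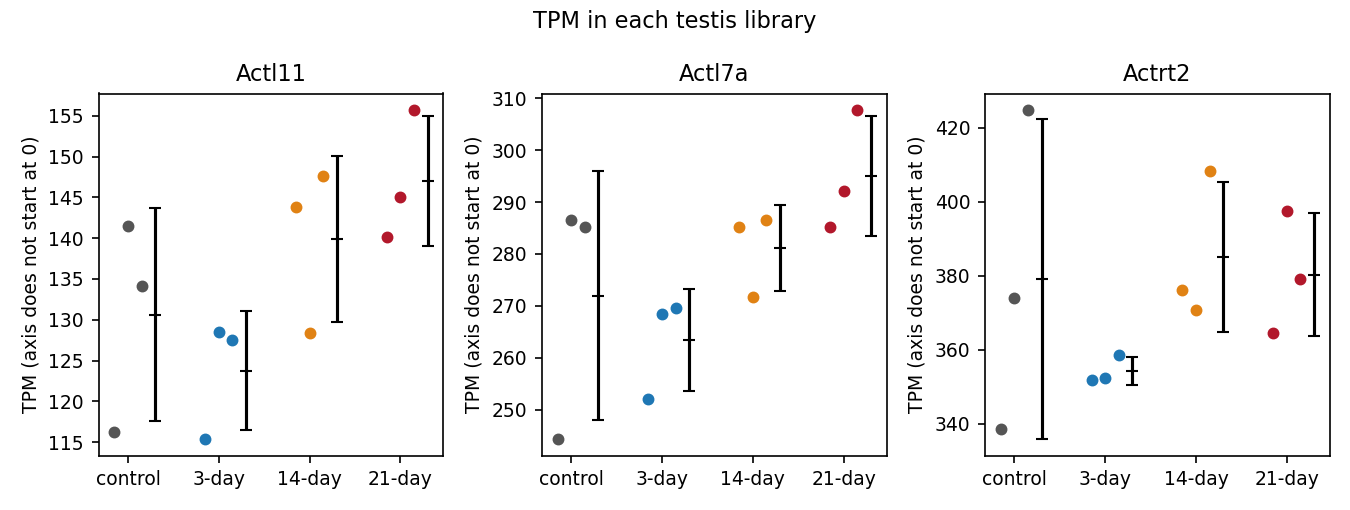
TPM of Actl11, Actl7a and Actrt2 (vertical axes, not starting at 0) in the 3 libraries of each group (points, replicates 1 to 3 from left to right), with the group mean and SD (bar with caps). The 21-day points lie above all 3-day points for each gene, and every stress group overlaps the control points.

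Among the 7 comparisons, the differences farthest from 0 lay between the stress groups. For all 3 genes the 21-day libraries were higher than every 3-day library, which 12.6% of the features tested also showed (two-sided exact permutation p = 0.1 for each gene, the smallest that 3 against 3 libraries allow). The log2 fold change from 3 to 21 days was 0.28 for Actl11 (95% interval 0.12 to 0.44, unadjusted p = 0.00447, adjusted p = 0.176 in edgeR). It was 0.21 for Actl7a (0.068 to 0.34, unadjusted p = 0.00940, adjusted p = 0.188 in edgeR) and 0.15 for Actrt2 (-0.020 to 0.32, unadjusted p = 0.0757, adjusted p = 0.348 in edgeR). These are folds of 1.21, 1.15 and 1.11. Actl7a and Actl11 were thus among the 8.23% of features that were higher at an unadjusted p under 0.05, and no member passed the adjusted threshold, which 1 feature did (0.00472%). DESeq2 called Actl11 (log2 fold change 0.30, adjusted p = 0.00824) and Actl7a (0.22, adjusted p = 0.0318) but not Actrt2 (0.17, adjusted p = 0.247), with 2.77% of features called. The adjusted p of Actl11 ranged from 0.00824 to 0.450 and that of Actl7a from 0.0318 to 0.476 over all alternatives, and DESeq2 alone took them under the threshold. With 1 library left out, their unadjusted p stayed under 0.05 in 6 of 6 fits each, where 2254 to 3889 of all features were under it.

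From 3 to 14 days the log2 fold change was 0.12 for Actl7a (SE 0.0470, unadjusted p = 0.0414, adjusted p = 0.355 in edgeR). It was 0.15 for Actrt2 (SE 0.0540, unadjusted p = 0.0245, adjusted p = 0.315 in edgeR) and 0.19 for Actl11 (SE 0.0714, unadjusted p = 0.0290, adjusted p = 0.324 in edgeR). All 3 were among the 7.73% of features that were higher at an unadjusted p under 0.05, and none had an adjusted p under 0.05. With 1 library left out, the unadjusted p stayed under 0.05 in 3 of 6 fits for Actl11, 1 of 6 for Actl7a and 3 of 6 for Actrt2. In these fits 1924 to 2763 of all features were under it. With all libraries kept, edgeR called no feature by the adjusted p (0%), against 2829 by the unadjusted p and 411 by DESeq2 (1.49%). The 14-day libraries of Actl7a and Actrt2 were all higher than the 3-day libraries, as for 10.8% of features. Those of Actl11 overlapped, since 14-day replicate 2, at 128.34 TPM, lay just under 3-day replicate 2, at 128.44 TPM.

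Between 14 and 21 days all 3 genes overlapped, where 8.62% of features stood apart, with log2 fold changes of 0.11 for Actl7a (SE 0.0631), 0.016 for Actrt2 (SE 0.0862) and 0.10 for Actl11 (SE 0.0801) and an adjusted p of 0.999 for each in edgeR. None had an unadjusted p under 0.05, where 3.05% of features did. By the adjusted p edgeR called no feature (0%), against 643 by the unadjusted p and 20 by DESeq2 (0.0722%). The Actrt2 value was -0.067 without 21-day replicate 2 and -0.021 without 14-day replicate 2. That of Actl7a was 0.16 without 21-day replicate 1 (unadjusted p = 0.0412, adjusted p = 0.9998 in edgeR). In that fit 804 of 21355 features had an unadjusted p under 0.05. In 1 test of any difference among the 4 groups, the edgeR adjusted p was 0.338 for Actl11, 0.399 for Actl7a and 0.663 for Actrt2, where 0.427% of 21992 features passed. By mean TPM the order of Actl7a and Actl11 was 3-day, control, 14-day and 21-day from low to high. For Actrt2 it was 3-day, control, 21-day and 14-day. Neighbours in each order overlapped.

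**Figure D2:**
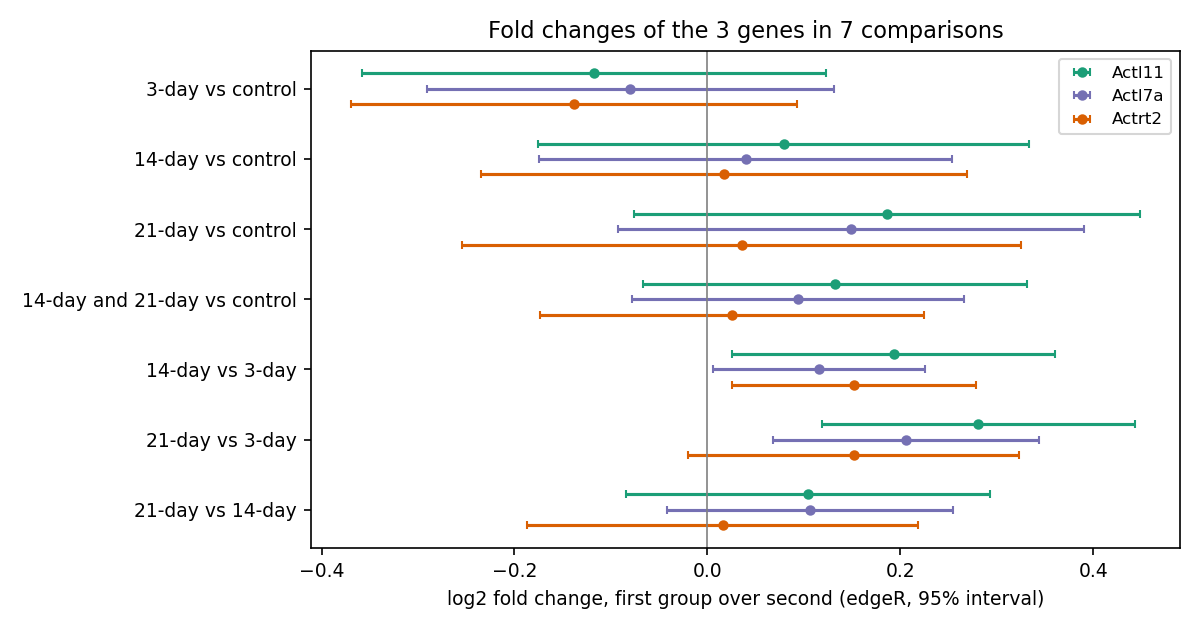
Log2 fold changes (horizontal axis, first group over second) of Actl11, Actl7a and Actrt2 from edgeR in 7 comparisons, with 95% intervals as bars. Each interval against control spans 0. Against 3-day, the intervals of all 3 genes at 14-day and of Actl11 and Actl7a at 21-day lie above 0.

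The proportions among the 3 genes were compared as ratios of TPM within a library, which do not depend on how libraries are scaled. They do depend on the effective length of each transcript in that library. Actl7a was 2.10, 2.02 and 2.13 times Actl11 in the control libraries and 2.18, 2.09 and 2.12 times in the 3-day libraries. It was 1.98, 2.12 and 1.94 times Actl11 at 14 days and 2.03, 2.01 and 1.98 times at 21 days. The 21-day ratios were all below the 3-day ratios, with a difference of -0.085 on the log2 scale.

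Actrt2 was 2.91, 2.64 and 3.17 times Actl11 in the control libraries and 3.05, 2.74 and 2.81 times at 3 days. At 14 days the ratio was 2.62, 2.89 and 2.77, and at 21 days 2.60, 2.74 and 2.44. Here too the 21-day ratios of TPM were below the 3-day ratios, by -0.15 on the log2 scale, though the nearest values were 2.741 and 2.744. As ratios of CPM these groups overlapped, with a log2 difference of -0.13. Actrt2 and Actl11 had 478 and 485 CPM in 21-day replicate 2, against 379 and 389 CPM in 3-day replicate 2. Actrt2 over Actl7a overlapped between all groups, with means from 1.29 ± 0.0651 (SD, n = 3) at 21 days to 1.39 ± 0.0926 (SD, n = 3) in control. Both differences without overlap by TPM had a two-sided exact permutation p of 0.1, the smallest that 3 against 3 libraries allow. Their adjusted p was 0.467 over 21 tests, so that no ratio passed the threshold. How often ratios of other genes stand apart in this way was not counted.

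**Figure D3:**
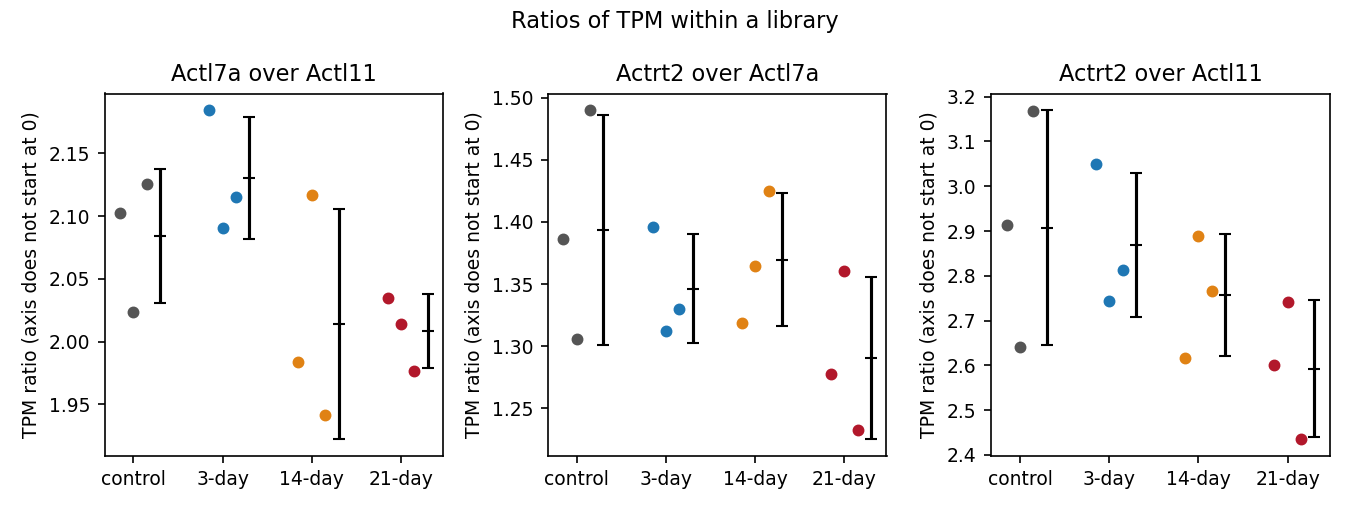
Ratios of TPM between pairs of the 3 genes (vertical axes, not starting at 0) in the 3 libraries of each group (points), with the mean and SD (bar with caps). The 21-day points of Actl7a over Actl11 and of Actrt2 over Actl11 lie under all 3-day points, for Actrt2 over Actl11 by a narrow margin.

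The 3 genes varied together with the other spermatid markers. The summed level of the 382 others was 96609 ± 9587 CPM in control, 91432 ± 3623 at 3 days, 103456 ± 3886 at 14 days and 109246 ± 8439 at 21 days (SD, n = 3 each). The summed SPG markers were 960 ± 94.1 CPM in control, 901 ± 7.55 at 3 days, 824 ± 42.6 at 14 days and 801 ± 19.2 at 21 days (SD, n = 3 each), and the summed SPC markers had means from 47259 to 49277 CPM. Stra8 made little of the SPG sum, which without it was 951, 891, 817 and 795 CPM in the same order. Another of these markers, Hspa5, had a mean of 281 TPM over the 12 libraries. The sum was not computed without Hspa5, so its part in the differences of the sum is not known. The sum was not tested as a measure of spermatogonia. In bulk testis, fewer cells of a type and less RNA per cell cannot be told apart, and the part of cell composition in these results was not tested. Across the 12 libraries, log2 CPM correlated with the summed spermatid level at Pearson r = 0.96 for Actl7a (Spearman rho = 0.93), 0.80 for Actrt2 (rho = 0.80) and 0.96 for Actl11 (rho = 0.97). With the summed SPG level r was -0.78, -0.58 and -0.79. These are descriptions over 12 libraries that share their library size between both values.

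The 3 genes were also expressed as a share of the other spermatid markers' CPM. Actl7a made 3.23 ± 0.101 parts in 1000 in control, 3.24 ± 0.0360 at 3 days, 3.12 ± 0.0133 at 14 days and 3.19 ± 0.104 at 21 days (SD, n = 3 each). Actrt2 made 4.31 ± 0.399, 4.15 ± 0.133, 4.09 ± 0.190 and 3.92 ± 0.0908, and Actl11 4.17 ± 0.139, 4.07 ± 0.111, 4.13 ± 0.180 and 4.23 ± 0.189. From 3 to 21 days the log2 share differed by -0.023 for Actl7a, -0.080 for Actrt2 and 0.053 for Actl11 (two-sided exact permutation p = 0.5, 0.2 and 0.5), while the summed spermatid level itself was 0.25 higher. Against control the log2 share of Actrt2 differed by -0.13 at 21 days (exact permutation p = 0.2) and by -0.10 for both durations joined (exact permutation p = 0.107). The 14-day shares of Actl7a were all below those of the control libraries (log2 difference -0.052) and of the 3-day libraries (-0.056), at an exact permutation p of 0.1. On the same scale 13.3% and 31.2% of all features were lower without overlap. This scale was added after the values had been seen.

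**Figure D4:**
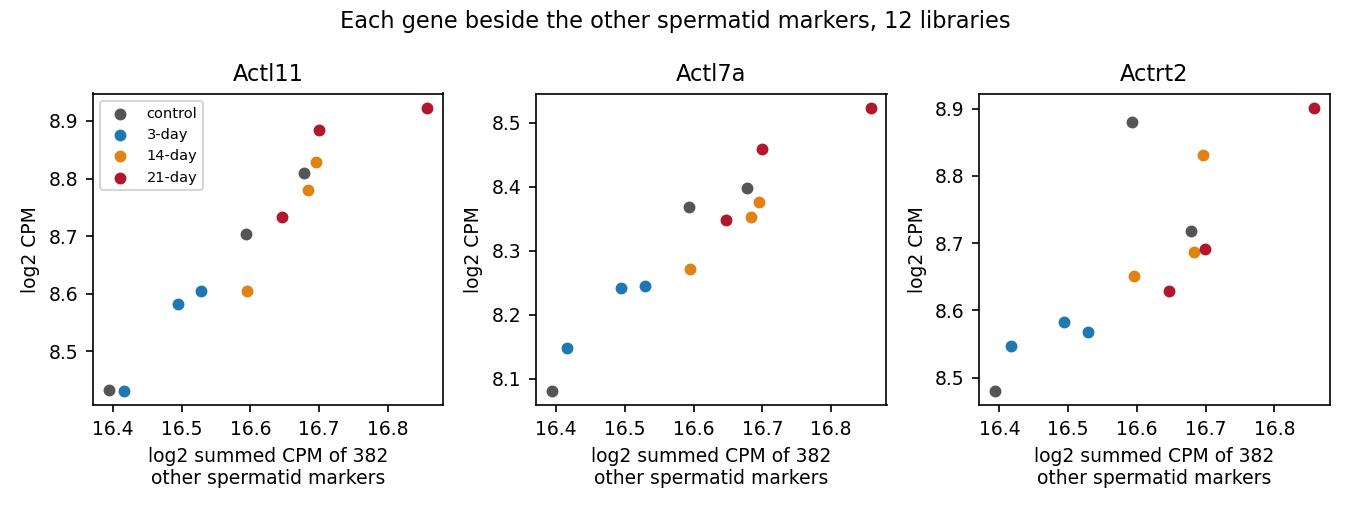
Log2 CPM of each gene (vertical axis) against the log2 summed CPM of the 382 other spermatid markers (horizontal axis) in 12 libraries, coloured by group. Actl11 and Actl7a follow the sum closely (r = 0.96 for both), and Actrt2 less so (r = 0.80), with control replicate 3 and 14-day replicate 3 above the other points at a like sum.

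Actl7a and Actl11 were close to each other in pattern, with r = 0.97 and rho = 0.96 over 12 libraries. Actrt2 was less like both, with r = 0.83 and rho = 0.92 to Actl7a and r = 0.78 and rho = 0.83 to Actl11. Among the 577 other markers of all stages, Actl7a ranked 3 in likeness to Actl11, behind Spata7 and Akap1 and ahead of Cyp51 and Fam71f2 (r from 0.972 to 0.980). For Actl7a the most alike were Fam71f2 (r = 0.988), Spata20, Actl11, Ccdc54 and Phyhipl (r = 0.971). For Actrt2 they included Znrf4 (r = 0.95), Abhd16b, Csnk1g2 and Fam71e1 (r = 0.909), whereas Actl7a ranked 44 and Actl11 ranked 101. The median r over spermatid markers was 0.80 for Actl7a and Actl11 and 0.68 for Actrt2. The SPG marker Nucks1 was least like each of them (r = -0.84 for Actl7a, -0.66 for Actrt2 and -0.79 for Actl11), followed by Hspa5 for Actl7a (r = -0.71), Apobec4 for Actrt2 (r = -0.64) and Znhit3 for Actl11 (r = -0.76).

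Other actin cytoskeleton and perinuclear theca genes of the marker list were read from a list of 13, of which 12 were matched. In the comparisons of 14 and 21 days with 3 days, 7 of 12 were higher at an unadjusted p under 0.05 each time and none was lower, where 7.73% and 8.23% of all features were higher, with median log2 fold changes of 0.16 in both, against medians of -0.0083 and -0.012 over all features. None passed the adjusted threshold. Against control, the count of higher genes was 0 at 3 days, 1 at 14 days, 1 at 21 days and 2 for both durations joined, none was lower, and median log2 fold changes were -0.038, 0.10, 0.14 and 0.12. Of all features, 428 of 21076, 1515 of 21058, 1786 of 21106 and 2396 of 21663 were higher by the same rule. Their medians were -0.0086, -0.012, -0.0031 and -0.0056. Between 14 and 21 days none passed the unadjusted threshold, and the median was 0.026. The comparisons of 14 and 21 days with 3 days share the 3-day libraries. Among the 382 other spermatid markers 175 were higher at an unadjusted p under 0.05 in each of the comparisons with 3 days, and 4 and 2 lower.

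Capza3, the testis subunit of actin capping protein, had 344 ± 27.1 TPM in control and 373 ± 5.04 TPM at 21 days (SD, n = 3 each). It was higher at 21 than at 3 days without overlap (log2 fold change 0.25, unadjusted p = 0.00275, adjusted p = 0.168 in edgeR). Pfn3, a testis profilin, had 188 ± 20.9 TPM in control and a log2 fold change of -0.020 from 3 to 21 days (adjusted p = 0.937 in edgeR). Ccin, which codes for calicin of the perinuclear theca, had 133 ± 10.9 TPM in control and a log2 fold change of 0.20 (adjusted p = 0.292 in edgeR). Micalcl had 122 ± 9.88 TPM in control and a log2 fold change of 0.094 (adjusted p = 0.456 in edgeR). Of the 4 most abundant genes of this list, Pfn3 alone had a negative value from 3 to 21 days. Actg2, a smooth muscle actin, had 6.22 ± 3.12 TPM in control (SD, n = 3) and passed no test (adjusted p from 0.687 to 0.999 in edgeR).

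All 12 genes of a list of acrosome and egg activation genes were measured. From 3 to 21 days none had an unadjusted p under 0.05 and the median log2 fold change was 0.038, and from 3 to 14 days 1 was higher and the median was 0.041. Against control the count of higher genes was 0 at 3 days, 1 at 14 days, 1 at 21 days and 2 for both joined, none was lower, and medians were 0.020, 0.069, 0.11 and 0.10. The counts and medians of all features in these comparisons are those given beside the actin cytoskeleton list. Between 14 and 21 days the count was 0 and the median 0.027. None passed an adjusted p of 0.05 in any comparison. The most abundant was Spaca7, an acrosomal protein, with 663 ± 39.7 TPM in control and 714 ± 33.0 TPM at 21 days (SD, n = 3 each). Its log2 fold change was 0.18 at 21 days against control (unadjusted p = 0.0399, adjusted p = 0.330 in edgeR) and 0.052 against 3 days (adjusted p = 0.699 in edgeR). Zpbp, which binds the zona pellucida, and Spaca1 and Spaca4, proteins of acrosomal membranes, had log2 fold changes of 0.026, 0.0074 and 0.040 from 3 to 21 days (adjusted p from 0.794 to 0.963 in edgeR).

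**Figure D5:**
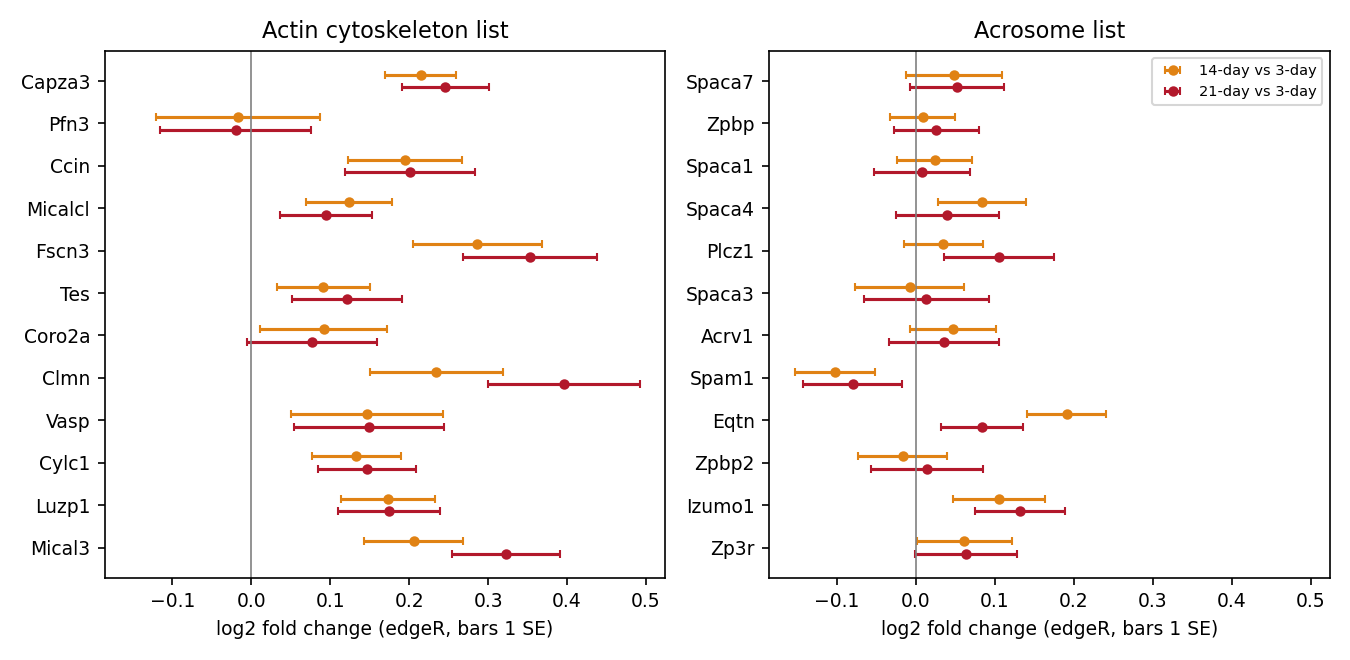
Log2 fold changes (horizontal axis, edgeR, bars 1 SE) of the 12 measured actin cytoskeleton genes and the 12 acrosome genes for 14-day and 21-day against 3-day libraries, each list ordered by control TPM from the top. In the actin cytoskeleton list 11 of 12 values lie above 0 in each comparison, the exception being Pfn3.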

How the data were processed

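RNA-seq of 12 rat testis libraries was analysed, grouped by their labels. For read trimming, alignment to Rnor_6.0 and counting, the study's methods name Trimmomatic, HISAT2 and HTSeq-count, with versions not given in the sources used here. The tables have effective lengths and estimated counts in the layout of kallisto, a quantifier those methods do not name, so it is not settled which tool made the counts. The authors deposited 1 estimated count for each transcript, in part not a whole number, and a TPM value, which is that count over effective length, scaled by the authors to the same total in every library. For the 3 genes TPM followed the counts to within 0.000602%. The tables hold transcript identifiers only, so the 578 markers were named by matching values of the study's marker list to the deposited values, and matched transcripts were summed. Wasf2 and other actin family genes could not be named and were not analysed here.

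Estimated counts were rounded and fitted with edgeR 4.0.16 (R 4.3.3), with TMM factors, filterByExpr and the quasi-likelihood test, on the libraries of each comparison, with Benjamini-Hochberg adjustment over all features and a threshold of 0.05. Intervals of fold changes are 95% intervals from that fit. Log2 CPM used a prior count of 2. Single values and ratios were compared by two-sided exact permutation, with 0.0238 as the smallest p for 6 against 3. Alternatives were RLE factors, scaling to the total, no filter, at least 10 counts in every library, all 12 libraries in 1 fit, a replicate block, single transcripts, DESeq2 1.42.0, limma 3.58.1 on log2(TPM + 1) or log2(TPM + 0.1), and each library left out. The edgeR fit was also run on simulated data with changes larger than those of the 3 genes, which says nothing of detecting changes as small as theirs. Summaries used Python 3.11.15 with NumPy 2.4.6, pandas 2.3.3, SciPy 1.17.1 and matplotlib 3.10.9.

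Named from each list were genes past an adjusted p of 0.05, or else the 4 with the highest control TPM, plus Actg2 and, for each of the 3 genes, the 5 markers most like it and the 2 least like it by Pearson r. Of the markers this rule named for Actrt2, 1 is not reported here. The members and lists were chosen with earlier results of these data known. Libraries of a group differed by more than counting noise, so none was treated as a copy. In no comparison of 2 groups did all 3 pairs of same-numbered libraries deviate from their group means with a correlation over 0.1, so the numbers were not taken as pairs.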

Additional observations from a re-analysis of the deposited data

Results flagged for a closer look

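Actl11 and Actl7a lay on opposite sides of the control mean after 3 and after 21 days: all 3 of the 3-day libraries were below it and all 3 of the 21-day libraries above it. That mean includes control replicate 1, the lowest control library for both genes. On the log2 CPM scale 21-day replicate 1 lay below control replicate 2 for both genes. It was 8.73 against 8.81 for Actl11 and 8.35 against 8.40 for Actl7a. How many of all features show this pattern was not counted. The 21-day mean log2 CPM exceeded the 3-day mean by 0.31 for Actl11 and by 0.23 for Actl7a. In direct tests of this difference the exact permutation p was 0.1 for each gene, the smallest that 3 against 3 libraries allow, and the edgeR adjusted p was 0.176 and 0.188. Actrt2 lay below the control mean in all 3 of the 3-day libraries, but above it in 1 of 3 at 21 days by log2 CPM, the scale of these comparisons.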

How the results depend on the processing

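The direction and call of the 3 genes in edgeR (none past an adjusted p of 0.05) held in 233 of 237 results under alternatives that kept all libraries and in 161 of 171 that left out 1 library. In each of these settings most features were not past the adjusted threshold either, so agreement on the call says little of the 3 genes. DESeq2 called Actl11 (0.30) and Actl7a (0.22) from 3 to 21 days. The Actrt2 value from 14 to 21 days was -0.018 with limma on log2(TPM + 1) and -0.018 on log2(TPM + 0.1), against 0.016. The other exceptions took the opposite sign with 1 library left out, those of Actl7a and Actl11 without control replicate 1. The list medians moved by less than 1 SD between replicates, but several lay near 0 and took the opposite sign with 1 library left out. The acrosome median ran from -0.011 to 0.091 (3 days against control), -0.0040 to 0.084 (21 against 3 days) and -0.016 to 0.054 (21 against 14 days), and the actin cytoskeleton median from -0.0045 to 0.075 (21 against 14 days).

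Leaving out 1 library, edgeR log2 fold changes ran from -0.015 to 0.16 (Actl11), -0.048 to 0.095 (Actl7a) and -0.076 to 0.11 (Actrt2) for 14-day against control. For Actrt2 they ran from -0.067 to 0.13 for 21-day against control, -0.066 to 0.12 for both durations and -0.067 to 0.080 for 21-day against 14-day. Differences of mean log2 CPM ran from -0.018 to 0.17, -0.050 to 0.11 and -0.077 to 0.12 at 14 days, and for Actrt2 from -0.059 to 0.14, -0.068 to 0.13 and -0.063 to 0.073. The log2 ratio of Actl7a over Actl11 from 14 to 21 days ran from -0.029 to 0.033 and was 0.000125 from CPM. That of Actrt2 over Actl7a ran from -0.095 to 0.00051 at 3 days against control, -0.070 to 0.025 at 14 days and -0.0044 to 0.052 from 3 to 14 days. Actrt2 over Actl11 ran from -0.084 to 0.047 at 3 days and from -0.19 to -0.055 for both durations against control. For both durations it passed an unadjusted exact permutation p of 0.05 without control replicate 2, the library with the lowest control ratio (2.64). That p is the smallest that the remaining libraries allow.

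Relative to the other spermatid markers, a scale added after seeing the data, these log2 differences took the opposite sign. Actl11 was -0.013 at 14 days against control. Actl7a was 0.0041, -0.052, -0.018 and -0.035 at 3, 14, 21 and both durations against control, and -0.056 and -0.023 at 14 and 21 days against 3 days. Actrt2 was -0.073, -0.13 and -0.10 at 14, 21 and both durations against control, -0.022 and -0.080 at 14 and 21 days against 3 days, and -0.059 from 14 to 21 days.

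Counts of features past an adjusted p of 0.05 moved most, from 0, 0, 4, 375, 0, 1 and 0 in edgeR (3, 14, 21 and both durations against control, 14 and 21 against 3 days, 21 against 14 days). DESeq2 called 39, 342, 733, 1650, 411, 766 and 20. A single fit of all 12 libraries called 1, 12, 666, 709, 30 and 1 (all but 14 against 3 days). Limma on log2(TPM + 1) called 3, 5 and 154 (3, 14 and both durations against control) and 4 (21 against 3 days), and with 0.1 it called 9, 9, 223 and 6. At least 10 counts per library gave 1 (3 days), 671 (both) and 0 (21 against 3 days), no filter gave 248 (both) and 1 (21 against 14 days), and total scaling gave 10 (21 against 3 days). The replicate block gave 0 at 21 days and 21 for both durations. It changed no adjusted call of the 3 genes, whose block adjusted p at 21 days against control was 0.228 for Actl11, 0.257 for Actl7a and 0.823 for Actrt2. The unadjusted p there fell under 0.05 for Actl11 (0.0143) and Actl7a (0.0325), as for 3612 of the 21106 features tested with the block. From 3 to 14 days it rose above 0.05 with the block (0.0541 and 0.0818), where 2260 of 21139 features were under it. In the test of any group difference edgeR called 94 features, the replicate block 0, DESeq2 1458 and the other alternatives with all libraries 22 to 171, and 0 to 56 were called with 1 library left out. There the block took the unadjusted p of Actl11 and Actl7a to 0.0294 and 0.0402, with 3369 of 21992 features under 0.05.

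With 1 library left out, adjusted counts ran from 0 to 1 (3 days), 0 to 2 (14 days), 0 to 3 (21 days), 4 to 547 (both), 0 to 2 (14 against 3 days) and 0 to 5 (21 against 3 days). Unadjusted counts ran from 626 to 1474 (3 days, highest without control replicate 1), 1676 to 3441 (14 days, lowest without 14-day replicate 1), 1946 to 3212 (21 days, lowest without 21-day replicate 3), 2254 to 3889 (21 against 3 days, lowest without 3-day replicate 1) and 509 to 1388 (21 against 14 days, highest without 21-day replicate 2). Causes of these movements were not tested. Each of the 3 genes had 7521 counts or more in every library, so counts were not low.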

Other observations

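Of 10 actin-like and actin-related genes with a RefSeq promoter region, 3 held TGATGTCA within 250 bases before the start: Actl7a, Actl7b and Actl9. The looser TGANGTCA was held by 4 of 10, Actl10 being the fourth, against 8.88% of all rat promoter regions. The letters were chosen after the sequences had been seen. The Actl7b region lies at chr5:76242128-76242377 on the strand opposite to Actl7a, on the same chromosome of GRCr8. The transcripts of Actl7b, Actl9 and Actl10 were not analysed here.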
